A study of Mus musculus with 9 samples.

Results

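The genes described here are Ifitm1, Ifitm2 and Ifitm3, which encode small interferon-induced transmembrane proteins, and B2m, H2-K1, H2-D1 and Tap1 of the MHC class I antigen presentation pathway. They are the 7 rows of a table of 37975 genes that carry these symbols, chosen by name. Expression was measured by RNA sequencing in 9 libraries of mouse cells, 1 per group. The endoderm transcription factor Sox17 was overexpressed in an embryonic stem cell (ESC) line with doxycycline (dox, 100 ng/ml). This line was sampled without dox, at 7, 21, 35 and 49 h, and on day 6. The same line gave Sox17-XEN, labelled with 30 days of dox and 30 days without it in an order that the label leaves unclear, and whose description holds the words dox-indep. The other libraries, neither given dox, are the wild-type XEN line IM8AR, which consists of stem cells of the extraembryonic endoderm, and wild-type R1 ESCs. Per the labels, ESCs shared their dishes with mouse embryonic fibroblast feeders in serum and LIF, and XEN cells grew in serum with medium conditioned by such fibroblasts. The description of the day 6 library carries the word SORT with no detail. The course has no time-matched culture without dox, and each line is a single line.

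Interferon is secreted by cells that sense foreign nucleic acid, and its receptors signal through JAK kinases and STAT proteins to raise many genes that limit infection. IFITM proteins sit in plasma and endosomal membranes and hinder the fusion of enveloped viruses, and in the mouse embryo Ifitm1 and Ifitm3 are also known from primordial germ cells. In class I presentation the proteasome cuts proteins into peptides, TAP1 and TAP2 carry them into the endoplasmic reticulum, and a heavy chain such as H2-K1 or H2-D1 binds one together with the light chain beta-2-microglobulin, the product of B2m. The complex then presents the peptide on the cell surface to T cells, and its level informs natural killer cells. ESCs are known for low class I levels and for a weak interferon response.

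The sequences around the transcription start sites are shown because the Ifitm genes and the heavy chain genes moved apart in these libraries, and the windows show which regulatory letters each holds. All 7 genes had an entry in RefSeq (build GRCm38.p6), from 250 bases before to 50 bases after the start, and the 6 below are written 5′ to 3′ on the gene's strand. Capitals mark exact matches on either strand to the interferon response element core GAAANNGAA, the STAT-binding GAS core TTCNNNGAA and the NF-kB core GGGANNNCC. Other forms of these elements were not searched and stay in lower case. The SOX core ACAATG and the GATA core AGATAA were searched as well. These exact letters had no match in the windows of the 7 genes. Variants of the GATA letters were not searched, such as TGATAA in the Ifitm3 window and AGATAG in the B2m window. Variants of the SOX letters were not searched either, so the windows may hold other SOX forms. Examples are ACAATC in Ifitm3 and, on the opposite strand, AACAAT in Ifitm2 and ACAAAG in B2m.
Ifitm1, chr7:140967826-140968125, plus strand: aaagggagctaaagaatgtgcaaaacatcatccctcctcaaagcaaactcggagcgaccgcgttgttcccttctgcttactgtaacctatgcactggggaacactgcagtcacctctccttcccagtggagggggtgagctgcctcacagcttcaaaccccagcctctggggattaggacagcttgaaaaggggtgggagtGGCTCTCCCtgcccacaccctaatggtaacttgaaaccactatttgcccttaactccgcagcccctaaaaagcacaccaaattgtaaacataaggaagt
Ifitm2, chr7:140955912-140956211, minus strand: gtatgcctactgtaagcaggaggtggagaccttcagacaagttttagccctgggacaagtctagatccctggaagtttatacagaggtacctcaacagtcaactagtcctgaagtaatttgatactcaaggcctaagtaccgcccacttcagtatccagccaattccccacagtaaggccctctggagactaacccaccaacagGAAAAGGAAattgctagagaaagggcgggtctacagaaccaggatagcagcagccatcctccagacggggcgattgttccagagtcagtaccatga
Ifitm3, chr7:141010695-141010994, minus strand: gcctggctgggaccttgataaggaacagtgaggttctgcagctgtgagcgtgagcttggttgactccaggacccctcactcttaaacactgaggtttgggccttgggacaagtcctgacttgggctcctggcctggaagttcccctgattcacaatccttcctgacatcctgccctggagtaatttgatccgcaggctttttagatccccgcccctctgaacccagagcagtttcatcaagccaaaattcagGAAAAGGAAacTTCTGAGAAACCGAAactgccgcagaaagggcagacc
B2m, chr2:122147437-122147736, plus strand: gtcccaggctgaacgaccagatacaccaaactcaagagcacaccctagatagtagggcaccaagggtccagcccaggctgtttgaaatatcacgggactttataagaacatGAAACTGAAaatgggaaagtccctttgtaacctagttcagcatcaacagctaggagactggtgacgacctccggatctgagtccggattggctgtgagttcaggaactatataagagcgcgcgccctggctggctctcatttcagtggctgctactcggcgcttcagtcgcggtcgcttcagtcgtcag
H2-K1, chr17:34000298-34000597, minus strand: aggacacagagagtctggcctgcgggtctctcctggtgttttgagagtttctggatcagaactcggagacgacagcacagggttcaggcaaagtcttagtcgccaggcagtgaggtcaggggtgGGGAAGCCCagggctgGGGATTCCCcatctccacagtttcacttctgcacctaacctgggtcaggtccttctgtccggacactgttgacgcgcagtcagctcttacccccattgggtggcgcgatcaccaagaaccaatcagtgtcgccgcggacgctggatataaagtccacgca
H2-D1, chr17:35262844-35263143, plus strand: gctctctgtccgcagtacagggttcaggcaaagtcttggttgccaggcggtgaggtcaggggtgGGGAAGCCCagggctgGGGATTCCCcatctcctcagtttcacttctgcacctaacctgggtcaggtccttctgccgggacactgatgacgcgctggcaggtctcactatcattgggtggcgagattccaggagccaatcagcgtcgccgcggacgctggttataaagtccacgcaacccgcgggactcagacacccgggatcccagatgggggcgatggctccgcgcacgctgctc

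The interferon response core was found in Ifitm2 with its first base at -46, in Ifitm3 at 3 and 20, and in B2m at -139, counted from the start site as 1 with no position 0. The exact letters of this core were not found in the windows of Ifitm1, H2-K1, H2-D1 or Tap1. They are held by 8.56% of 32851 promoter windows of the same length. The H2-K1 and H2-D1 windows both hold cagtttcacttct, whose opposite strand reads as a variant of these letters that was not searched. In Ifitm3 a GAS core begins at 14 and overlaps the second interferon core, and 8.30% of windows hold that motif. H2-K1 and H2-D1 each hold 2 NF-kB cores, at -126 and -110 in H2-K1 and at -186 and -170 in H2-D1, and the second of each pair reads as a match on both strands. Ifitm1 holds 1 NF-kB core, at -49, and 18.6% of all windows hold at least 1. The B2m window holds gggaaagtccc, which has a longer spacer than the searched NF-kB letters and so was not counted. The SOX core is in 12.6% of windows and the GATA core in 11.2%. The CCAAT box, CCAAT (37.4% of windows), was found in all of the 7 genes but Ifitm1 and Ifitm3. The TATA box letters TATAAA (13.6%) were found in Ifitm2, B2m, H2-K1 and H2-D1, and both motifs are left in lower case. The TATAAA matches begin at -175 in Ifitm2 and -152 in B2m, both on the opposite strand. On the gene's strand they begin at 36 in H2-K1, after the start, and at -26 in H2-D1. The H2-K1 and H2-D1 windows share an unbroken run of 47 letters that begins at -141 in H2-K1 and at -201 in H2-D1. The longest run shared by Ifitm2 and Ifitm3 was 13 letters, and Ifitm1 shared at most 8 with either. A second RefSeq start of H2-K1 lies a few bases further downstream, and its window holds the same 2 cores.

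Levels are the authors' FPKM (fragments scaled by transcript length and by library size), which allows genes to be compared per length. Sox17 was at 71.1 to 283 FPKM in the 5 libraries with dox, at 101 FPKM in Sox17-XEN and 239 FPKM in wild-type XEN, against 0.909 FPKM without dox and 0.163 FPKM in R1 ESC. The table holds no counts and the depth of a library is unknown. As a share of R1 ESC it was estimated at 61.9% (day 6) to 127% (7 h), from the 6.10% to 13.3% of low values that share the commonest ratio. All 63 values of the 7 genes have the status OK. The authors' lower confidence bound is 0 for 61 of them, so single values are loosely bounded, and without replicates no value has an error over samples. In bulk RNA fewer cells of a type and less RNA per cell cannot be told apart, and this holds for every level given here.

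Ifitm1 (ENSMUSG00000025491, chromosome 7, 148153120 to 148155724 in mm9) was abundant in every ESC-type culture and low at day 6 and in both XEN-type lines. It stood at 186 FPKM without dox, 164 (7 h), 198 (21 h), 338 (35 h), 244 (49 h), and then at 2.26 FPKM at day 6. Sox17-XEN had 0.496 FPKM and wild-type XEN 1.43 FPKM, against 408 FPKM in R1 ESC. The 3 libraries at the low end are thus day 6 and both XEN-type lines, and the other 6 lie above all of them with no value in between. Day 6 was 0.0121 of the level without dox and wild-type XEN 0.00351 of that in R1 ESC.

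Ifitm2 (ENSMUSG00000060591, chromosome 7, 148140736 to 148141882) had the same low libraries with a narrower range and stayed well expressed in all of them. Its values were 278 FPKM without dox, 266 (7 h), 273 (21 h), 311 (35 h), 291 (49 h) and 41.6 (day 6). Sox17-XEN had 35.0 FPKM and wild-type XEN 117 FPKM, against 443 FPKM in R1 ESC. Wild-type XEN is the highest of the 3 low libraries here.

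Ifitm3 (ENSMUSG00000025492, chromosome 7, 148195485 to 148196669), the family member best known for blocking influenza virus entry, stood at 203 FPKM without dox, 151 (7 h), 138 (21 h), 144 (35 h), 187 (49 h) and 11.2 (day 6). It was at 31.7 FPKM in Sox17-XEN and 14.1 FPKM in wild-type XEN, against 228 FPKM in R1 ESC. Day 6 and both XEN-type lines are again below the other 6 libraries, and of these 3 Sox17-XEN is the highest.

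The summed FPKM of the 3 genes was 582 to 793 from no dox to 49 h and 55.0 at day 6. It was 67.2 in Sox17-XEN and 133 in wild-type XEN, against 1079.7 in R1 ESC. The makeup of the sum differed as well. Ifitm1 gave 0.738% of it in Sox17-XEN and 1.08% in wild-type XEN, against 37.8% in R1 ESC, and 4.10% at day 6, against 27.9% without dox. Ifitm2 gave 88.3% of the sum in wild-type XEN and 52.1% in Sox17-XEN, where Ifitm3 gave 47.2%. Of the other family members, Ifitm5, known from bone, was at 0.0672 FPKM in Sox17-XEN and 0.408 FPKM in wild-type XEN, against 2.57 FPKM in R1 ESC, and Ifitm6 and Ifitm7 stayed below 1 FPKM everywhere.

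**Figure D1:**
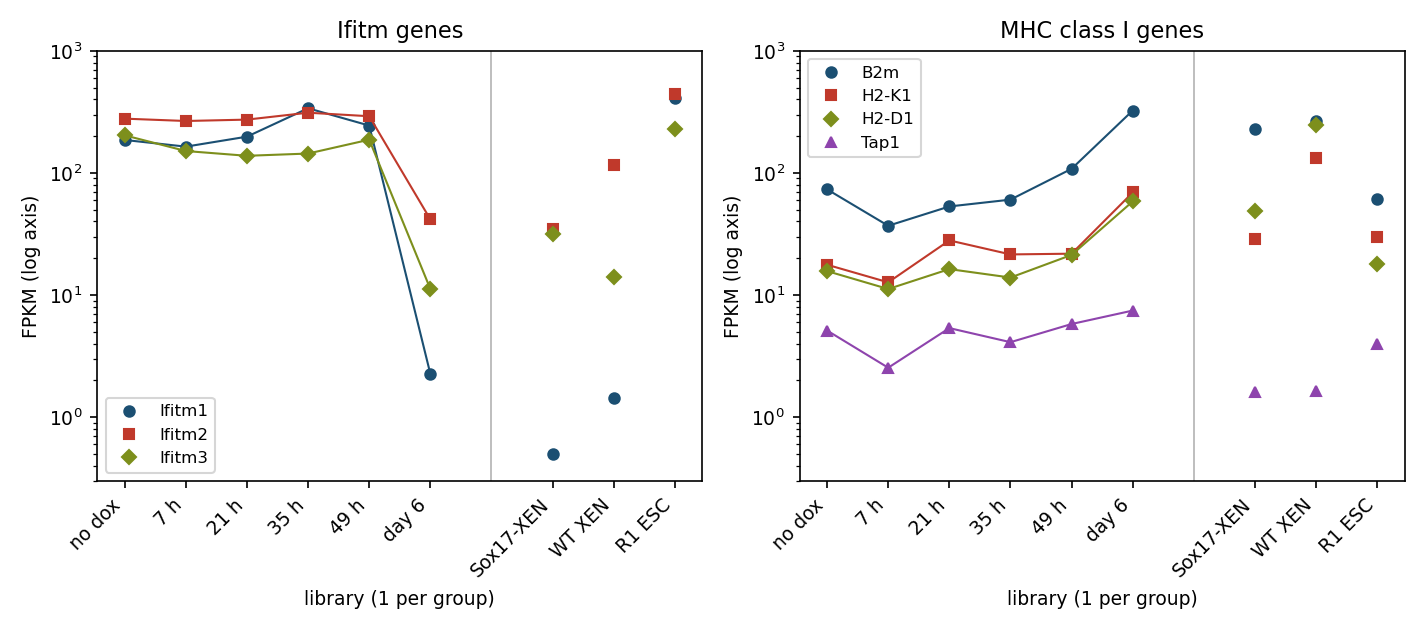
FPKM (log axis) of the Ifitm genes (left) and of the MHC class I genes (right) in the 9 libraries, 1 point per library, with lines joining the dox course. Ifitm1 drops to 2.26 FPKM at day 6, while B2m, H2-K1 and H2-D1 have their highest course values there.

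B2m (ENSMUSG00000060802, chromosome 2, listed locus 121945844 to 122011925, which the table also gives to Patl2 and Trim69) was high where the Ifitm genes were low. It stood at 73.3 FPKM without dox, 36.9 (7 h), 53.1 (21 h), 60.4 (35 h), 108 (49 h) and 324 (day 6). Sox17-XEN had 227 FPKM and wild-type XEN 268 FPKM, against 61.5 FPKM in R1 ESC. Day 6 and both XEN-type lines are the 3 highest libraries, with 49 h next.

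H2-K1 (ENSMUSG00000061232, chromosome 17, 34132962 to 34137278), a classical class I heavy chain, was at 17.7 FPKM without dox, 12.7 (7 h), 28.0 (21 h), 21.5 (35 h), 21.8 (49 h) and 69.1 (day 6). It was at 29.0 FPKM in Sox17-XEN and 133 FPKM in wild-type XEN, against 30.1 FPKM in R1 ESC. Sox17-XEN thus lay inside the range of the ESC-type libraries, and day 6 and wild-type XEN lay above it.

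H2-D1 (ENSMUSG00000073411, chromosome 17, 35399675 to 35404444), the second classical heavy chain, was at 15.7 FPKM without dox, 11.2 (7 h), 16.3 (21 h), 13.9 (35 h), 21.3 (49 h) and 58.4 (day 6). It was at 49.0 FPKM in Sox17-XEN and 248 FPKM in wild-type XEN, against 17.8 FPKM in R1 ESC. Day 6 and Sox17-XEN are close to each other and above every ESC-type library, and wild-type XEN stands above both. The authors' upper bound for H2-D1 in wild-type XEN was 1538 FPKM.

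The ratio of H2-D1 to H2-K1 was 1.69 in Sox17-XEN and 1.87 in wild-type XEN, against 0.592 in R1 ESC, and it lay at 0.581 to 0.974 over the whole dox course, day 6 included. The light chain gene B2m was at 0.705 of the summed heavy chains in wild-type XEN and at 1.20 to 2.91 times that sum in the other 8 libraries. The sum of the Ifitm genes was 0.495 of B2m in wild-type XEN, against 17.6 times B2m in R1 ESC, and 0.170 of B2m at day 6, against 9.11 times B2m without dox.

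Tap1 (ENSMUSG00000037321, chromosome 17, 34318932 to 34334170, a listed locus shared with the immunoproteasome gene Psmb9), a subunit of the peptide transporter, did not follow the heavy chains. It stood at 5.12 FPKM without dox, 2.54 (7 h), 5.36 (21 h), 4.11 (35 h), 5.79 (49 h) and 7.46 (day 6). Sox17-XEN had 1.62 FPKM and wild-type XEN 1.63 FPKM, against 4.00 FPKM in R1 ESC. Its highest value is that of day 6 and its lowest are those of both XEN-type lines.

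Differences were taken as log2(FPKM + 1) of one library minus another, and a gene is called higher or lower at 2 log2 units, which is 4-fold in FPKM + 1. There is no test between single libraries, and a difference on this scale understates that of genes at low levels. The first comparison, wild-type XEN minus R1 ESC, asks how the endoderm line and the pluripotent line differ. H2-D1 (3.73), B2m (2.11) and H2-K1 (2.11) were higher in wild-type XEN, which is 3 of the 7 genes, where 8.24% of 14974 genes were higher. Ifitm1 (-7.39) and Ifitm3 (-3.93) were lower, which is 2 of 7, where 6.54% of genes were lower. Ifitm2 (-1.91) and Tap1 (-0.93) stayed inside the limit. A rescaling of the libraries to a common median moved the median difference of all genes by -0.32. It left B2m at 1.65 and H2-K1 at 1.66, inside the limit, and put Ifitm2 at -2.36, outside it. It also turned the split of all genes from 1234 higher and 980 lower into 797 higher and 1172 lower.

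Between the Sox17 line without dox and R1 ESC none of the 7 genes was past the limit, where 0.367% of genes were higher and 0.227% lower. The largest of these differences were those of Ifitm1 (-1.13) and H2-K1 (-0.74).

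From 7 h to 49 h of induction no member was past the limit at any time against no dox. The background was 0.446% higher and 0.340% lower at 7 h, 0.746% and 0.446% at 21 h, 0.614% and 0.460% at 35 h, and 0.706% and 0.466% at 49 h. The largest single differences were those of B2m at 7 h (-0.97) and Ifitm1 at 35 h (0.86). At 7 h all 7 genes had values below those without dox (-0.06 to -0.97), where the median of all genes was -0.10, and with the libraries rescaled Ifitm2 turned to 0.05.

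At day 6 all 3 Ifitm genes were lower than without dox, with differences of -5.85 for Ifitm1, -2.71 for Ifitm2 and -4.06 for Ifitm3. That is 3 of the 7 genes, where 3.86% of all genes were lower. B2m (2.13) was the 1 member that was higher, where 5.14% of genes were. After rescaling it stood at 1.89, inside the limit, and the split of all genes turned from 771 higher and 578 lower into 603 higher and 684 lower. H2-K1 (1.91) and H2-D1 (1.83) were just inside the limit, and Tap1 stood at 0.47.

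Most of that difference lay between the 49 h and day 6 libraries. Only the day 6 description carries the word SORT, and summed feeder markers were at 222 FPKM there, against 3294 FPKM at 49 h. Time of induction, sorting and the makeup of the culture cannot be told apart in this step. Day 6 minus 49 h gave -6.23 for Ifitm1, -2.78 for Ifitm2 and -3.94 for Ifitm3, so 3 members were lower against a background of 3.47%, while 49 h minus no dox gave 0.39, 0.06 and -0.12 for the same genes. The class I genes had 1.62 (H2-K1), 1.57 (B2m), 1.42 (H2-D1) and 0.32 (Tap1), none of them called, where 3.74% of genes were higher. Rescaling turned the split of all genes for this pair from 561 higher and 521 lower into 433 higher and 608 lower. Comparisons that share R1 ESC, the library without dox or the day 6 library are not independent of each other.

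Sox17-XEN minus no dox gave -6.97 for Ifitm1, -2.96 for Ifitm2 and -2.64 for Ifitm3, which is 3 of 7 lower against 5.0% of all genes. No member was higher, against 5.75% of genes, with B2m at 1.62, H2-D1 at 1.58, H2-K1 at 0.69 and Tap1 at -1.23. Rescaling turned the split of all genes from 862 higher and 749 lower into 605 higher and 904 lower. Between Sox17-XEN and day 6 no member was past the limit, where 2.96% of genes were higher and 3.62% lower. Tap1 (-1.69), Ifitm3 (1.42) and H2-K1 (-1.22) had the largest differences in that pair.

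The induced line differed from wild-type XEN in its heavy chains. H2-K1 (-2.16) and H2-D1 (-2.31) were lower in Sox17-XEN, at 0.219 and 0.198 of their wild-type XEN levels, which is 2 of 7 where 1.59% of genes were lower. No member was higher, where 2.73% of genes were. B2m (-0.24) and Tap1 (-0.01) had values close to those of wild-type XEN, Ifitm2 stood at -1.71 and Ifitm1 at -0.70, and Ifitm3 at 1.12. The summed markers of fibroblast feeders differed as well, at 937 FPKM in Sox17-XEN and 59.4 FPKM in wild-type XEN. Per the labels XEN cells grew in medium conditioned by fibroblasts, so which cells gave these transcripts in Sox17-XEN is not known. The part of these markers in the result was not tested.

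**Figure D2:**
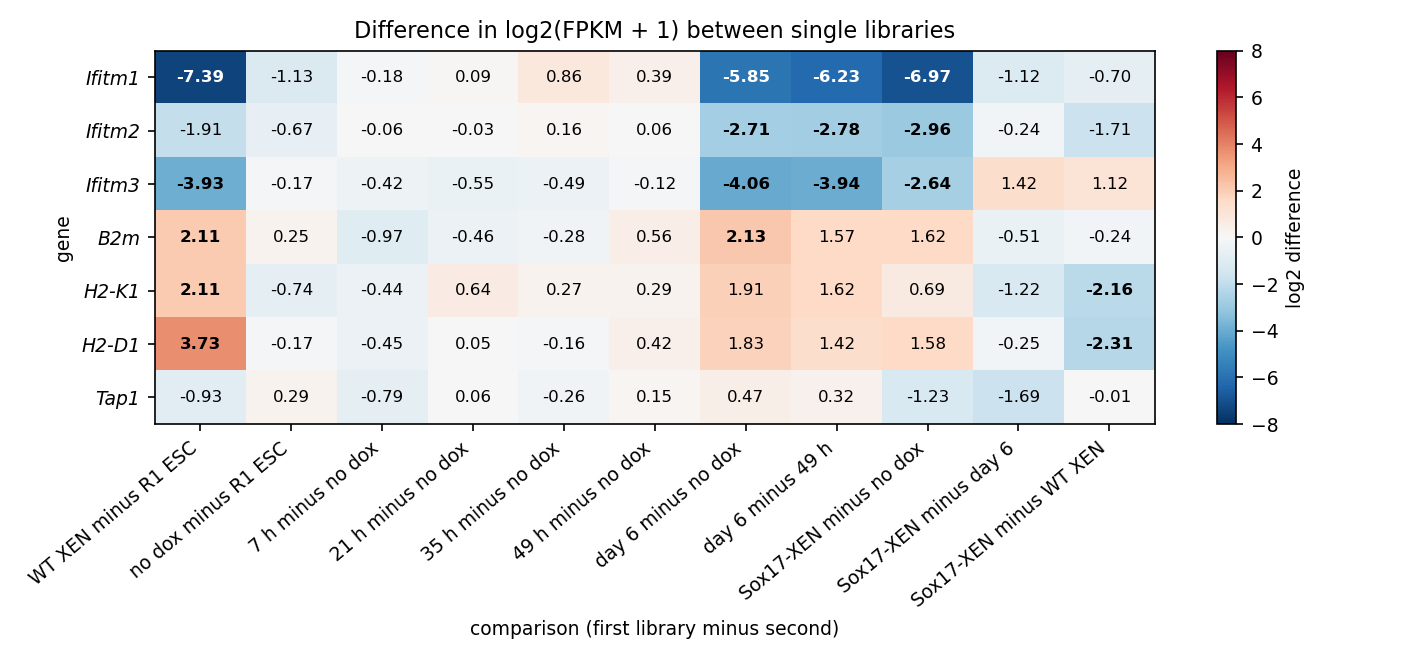
Difference in log2(FPKM + 1) for the 7 genes (rows) in the 11 comparisons between single libraries (columns, first library minus second), with blue for lower and red for higher and bold figures past 2 log2 units. The Ifitm rows are blue in every comparison of a XEN-type or day 6 library with an ESC-type one, and B2m, H2-K1 and H2-D1 are red in the same columns.

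Both XEN-type lines were then set against both ESC-type lines (R1 ESC and the Sox17 line without dox) in limma, with each line as 1 unit and p-values adjusted by Benjamini-Hochberg over 14925 genes. The lines of a type are different lines, and Sox17-XEN derives from the Sox17 ESC line, so the p-values measure only the spread between these 4 libraries, which may be technical. Ifitm1 fell (log2 difference -7.18, SE 0.50, adjusted p = 0.0171 by limma), as did Ifitm3 (-3.28, SE 0.43, adjusted p = 0.0213 by limma). B2m rose (1.86, SE 0.22, adjusted p = 0.0188 by limma). In each of these genes both XEN-type lines lie on one side of both ESC-type lines. That makes 2 of 7 members lower, where 9.89% of all genes were, and 1 higher, where 11.6% were. The others missed the threshold, with adjusted p-values by limma of 0.0691 for Tap1 (-1.08, SE 0.29), 0.0740 for Ifitm2 (-2.43, SE 0.67), 0.0942 for H2-D1 (2.65, SE 0.83) and 0.272 for H2-K1 (1.40, SE 0.82). Without R1 ESC, or without the Sox17 line without dox, no gene of the table was called, which holds for the members and for each further call of this fit given below. Per the labels the culture differs between ESC and XEN lines, so medium and cell type cannot be told apart. Over the 9 alternatives the adjusted p of the limma test ran from 0.0104 to 0.0799 for Ifitm1, from 0.0192 to 0.170 for Ifitm3 and from 0.0154 to 0.113 for B2m. Rescaling turned the split of all called genes from 1729 higher and 1476 lower into 972 higher and 1860 lower.

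A slope fitted to the order of the 6 libraries from no dox to day 6 was called for no gene of 14933 (0% higher and 0% lower) in limma at an adjusted p under 0.05, and so for none of the members. At an unadjusted p under 0.05, 2442 genes had positive and 1305 negative slopes, with B2m, H2-K1 and H2-D1 among the positive ones. The slopes were 0.44 log2 units per step for B2m and 0.33 for H2-K1 and for H2-D1, with adjusted p-values of 0.181, 0.183 and 0.182 by limma. They were -0.76 for Ifitm1, -0.55 for Ifitm3 and -0.37 for Ifitm2, and 0.14 for Tap1. Without day 6 the slopes of Ifitm1 and Ifitm2 were 0.18 and 0.04, so their sign rested on that library.

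In the fit of the lines 11.6% of all genes rose and 9.89% fell, and these shares stand beside each list count of that fit below. Of the 14 genes of peptide supply and assembly tested, 4 rose in the fit of the lines, 2 fell and 8 were not called, with a median estimate of -0.22, against 0.21 over all genes. B2m is 1 of the 4. The other 3 that rose are the chaperones of the endoplasmic reticulum that fold heavy chains along with many other glycoproteins. Calr was at 1507 FPKM in Sox17-XEN and 2424 in wild-type XEN, against 323 without dox and 289.8 in R1 ESC (adjusted p = 0.0274 by limma). Pdia3 was at 902 and 1053 FPKM in the same order of lines, against 188 and 151 (adjusted p = 0.0183 by limma). Canx was at 447 and 571 FPKM, against 192 and 147 (adjusted p = 0.0358 by limma). The genes that fell are the interferon-inducible immunoproteasome subunits Psmb8 and Psmb9. Psmb8 was at 0.337 FPKM in Sox17-XEN and 0.0113 in wild-type XEN, against 2.43 without dox and 3.66 in R1 ESC (adjusted p = 0.0267 by limma). Psmb9 was at 0.145 FPKM in Sox17-XEN and listed at 0 in wild-type XEN, against 1.46 without dox and 2.38 in R1 ESC (adjusted p = 0.0278 by limma), and a second row of that symbol stayed below 1 FPKM.

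Tap2, the partner of Tap1, was at 1.24 FPKM in Sox17-XEN and 0.191 in wild-type XEN, against 3.73 without dox and 2.80 in R1 ESC (adjusted p = 0.0812 by limma). Tapbp, the tapasin gene that bridges TAP and the heavy chain, was at 28.3 and 36.8 FPKM in the XEN-type lines, against 16.9 and 16.5 in the ESC-type lines (adjusted p = 0.0613 by limma). At day 6 Psmb10, the third immunoproteasome subunit, was at 1.45 FPKM, against 10.6 without dox (-2.24), and was the 1 assembly gene that was lower there, with B2m the 1 that was higher. Of all genes 3.86% were lower and 5.14% higher in that pair.

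Of 15 tested class I heavy chain genes, which include H2-K1, H2-D1 and the non-classical genes, none rose and 4 fell in the fit of the lines by limma, with 1 higher at an unadjusted p under 0.05, H2-D1 (list median -0.63, against 0.21 over all genes). H2-M5 fell with the largest estimate (-3.51, adjusted p = 0.0171 by limma), at 0.750 FPKM in Sox17-XEN and 0.633 in wild-type XEN, against 16.3 without dox and 20.4 in R1 ESC. It was at 6.58 (7 h), 2.77 (21 h), 2.76 (35 h), 2.24 (49 h) and 1.03 (day 6), and so was past the limit from 21 h on (-2.20 at 21 h and -2.42 at 49 h), when no Ifitm gene was. The other genes that fell are H2-Q6, H2-Q2 and H2-Q10. H2-Q7 had 18.9 FPKM at day 6, against 0.906 without dox (3.39), and 1.23 FPKM in Sox17-XEN and 0.135 FPKM in wild-type XEN. The Q genes share sequence with each other, so the division of reads among them is uncertain.

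Interferon ligand genes were at or near 0. All 16 found stayed at or below 0.113 FPKM in every library, among them Ifng, listed at 0 in 8 libraries, and Ifnb1, at 0.0380 FPKM at 49 h and listed at 0 in the other 8. Of the 12 receptors and JAK-STAT components, 11 were at or above 1 FPKM in Sox17-XEN and in wild-type XEN, against 12 without dox and 11 in R1 ESC. In the fit of the lines 5 of 12 rose and 1 fell, where 11.6% of all genes rose and 9.89% fell. The list's median was 1.32, against 0.21 over all genes. Ifnar2, a subunit of the type I receptor, was at 34.4 FPKM in Sox17-XEN and 71.3 in wild-type XEN, against 8.98 without dox and 6.74 in R1 ESC (adjusted p = 0.0319 by limma). Il10rb, shared by the receptors of type III interferon and interleukin 10, was at 19.1 and 21.0 FPKM, against 3.08 and 2.25 (adjusted p = 0.0188 by limma). Ifngr2 and Ifngr1, the subunits of the type II receptor, and Ifnar1 are the others that rose, and Il28ra, the specific subunit of the type III receptor, fell, to 0.0301 FPKM in Sox17-XEN and 0.0121 in wild-type XEN, against 1.19 without dox and 0.867 in R1 ESC.

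Of the regulators of class I transcription, Nlrc5, the class I transactivator, did not exceed 0.387 FPKM in any library and was not tested. None of the 7 tested transcription factors of that list was called by limma in the fit of the lines, and at an unadjusted p under 0.05 it had 2 higher and 1 lower. Nfya, a subunit of the factor that binds CCAAT boxes, was at 59.5 and 39.4 FPKM in Sox17-XEN and wild-type XEN, against 21.9 and 13.5 FPKM without dox and in R1 ESC (adjusted p = 0.0603 by limma). Irf1, an interferon-inducible activator of class I and immunoproteasome genes, followed the Ifitm genes. It was at 25.2 FPKM without dox, 20.2 (7 h), 31.3 (21 h), 25.7 (35 h), 26.0 (49 h) and 2.02 (day 6). Sox17-XEN had 3.55 FPKM and wild-type XEN 1.91 FPKM, against 25.2 FPKM in R1 ESC (adjusted p of the lines = 0.0190 by limma). Irf2 rose in the XEN-type lines (4.99 and 6.23 FPKM, against 1.50 and 0.626 FPKM in the ESC-type lines, adjusted p = 0.0439 by limma), as 1 of 8 interferon regulatory factors, of which 2 fell, Irf1 and Irf8. Of the NF-kB list, Tnfaip3, Rel and Rela rose, which is 3 of 7, and none fell. Of 11 nucleic acid sensors 1 rose, the kinase gene Tbk1, and 1 fell, the DNA sensor gene Aim2 (-3.10, adjusted p = 0.0177 by limma). Over all genes 11.6% rose and 9.89% fell in this fit, so the sensor counts are near those of any list. None of the 5 inhibitors of JAK-STAT signalling was called by limma, and at an unadjusted p under 0.05 it had 1 higher and 1 lower.

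**Figure D3:**
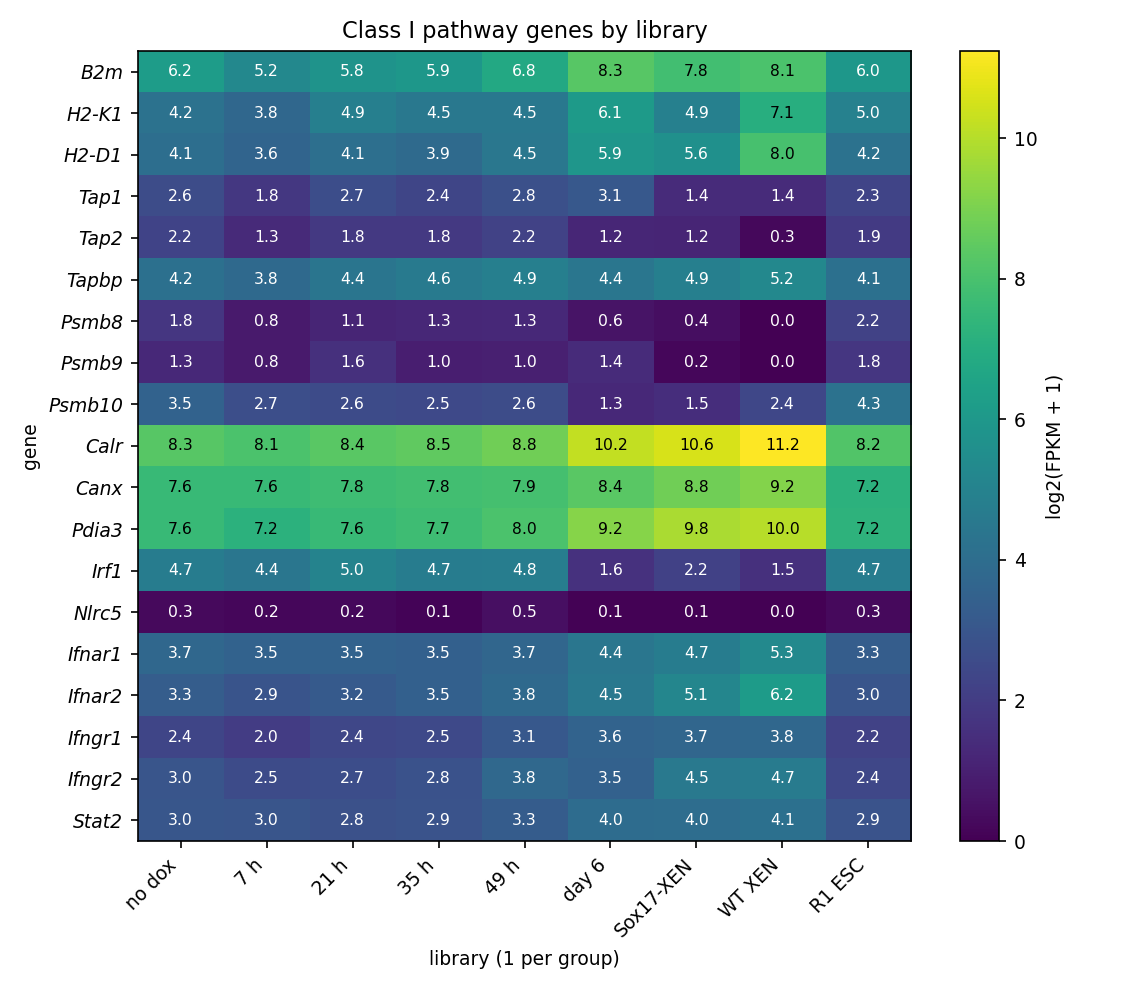
log2(FPKM + 1) of 19 genes of class I presentation and interferon signalling (rows) in the 9 libraries (columns), with the value in each cell. The chaperone genes Calr, Canx and Pdia3 and the receptor genes are highest toward Sox17-XEN and wild-type XEN, while Irf1, Psmb8 and Psmb9 have their lower values there.

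Interferon-stimulated genes other than the members were low, with a median over the 35 found of 0.332 FPKM in Sox17-XEN and 0.131 FPKM in wild-type XEN, against 1.05 FPKM both without dox and in R1 ESC. In the fit of the lines 1 of 28 rose (Xaf1) and 7 fell, where 11.6% of all genes rose and 9.89% fell. The list's median was -0.43, against 0.21 over all genes. Irgm1, a GTPase of cell-autonomous defence, was at 1.15 FPKM in Sox17-XEN and 0.256 in wild-type XEN, against 8.36 without dox and 8.73 in R1 ESC (adjusted p = 0.0266 by limma). Bst2, the virus-tethering protein tetherin, was at 8.50 FPKM in Sox17-XEN and 16.0 in wild-type XEN, against 42.6 without dox and 104 in R1 ESC (adjusted p = 0.0543 by limma), and it stood at 81.2 FPKM at day 6.

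Several genes of this list had higher values at 49 h than at the earlier times. Isg15, a ubiquitin-like modifier, was at 2.34 FPKM without dox, 0.424 (7 h), 0.663 (21 h), 0.789 (35 h), 7.45 (49 h) and 0.187 (day 6). Ifit1, which binds foreign RNA, was at 2.44 FPKM at 49 h and at 0.344 FPKM or less in the other 8 libraries. The chemokine gene Cxcl10 had 0.228 (35 h), 6.10 (49 h) and 8.89 (day 6) FPKM. Ifit3 and Usp18 had 2.91 and 2.39 FPKM at 49 h, with 0.400 and 0.327 FPKM as their highest values elsewhere, and were named after their values were seen. Of the 35 genes of the list found in the table, 27 reached 1 FPKM at 49 h, against 15 at 35 h and 18 without dox.

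The pair 49 h minus 35 h was added after these values were seen, so its figures describe those values and are no independent support. In it 2 of 28 interferon-stimulated genes were higher, Cxcl10 (2.53) and Isg15 (2.24), where 0.406% of all genes were, and none was lower, where 0.293% were. The list's median was 0.63, against 0.03 over all genes. The members had 0.83 for B2m, 0.58 for H2-D1, 0.41 for Tap1, 0.37 for Ifitm3, 0.02 for H2-K1, -0.09 for Ifitm2 and -0.47 for Ifitm1, none of them called. Summed fibroblast feeder markers moved in the same direction, to 3294 FPKM at 49 h, against 2113 FPKM at 35 h. Their part in the result was not tested. In the planned pair, 49 h minus no dox, only Cxcl10 (2.61) of the list was past the limit, where 0.706% of all genes were higher. Isg15 stood at 1.34 in that pair, and other genes of the list were lower, among them Bst2 (-0.52), Oas1a (-0.50) and Samhd1 (-0.45).

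**Figure D4:**
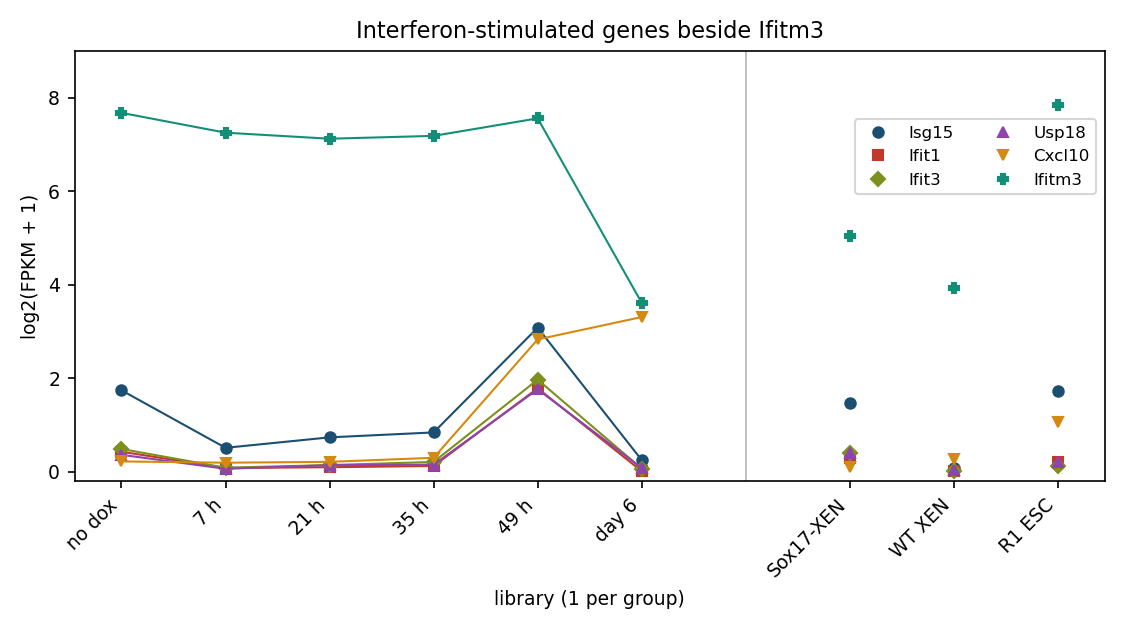
log2(FPKM + 1) of 5 interferon-stimulated genes and of Ifitm3 in the 9 libraries, 1 point per library, with lines joining the dox course. Isg15, Ifit1, Ifit3 and Usp18 peak at 49 h, where Ifitm3 (187 FPKM) lies within its earlier range, and at day 6 Cxcl10 (8.89 FPKM) stays up while the others do not.

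MHC class II genes, which are restricted to professional antigen-presenting cells in most tissues, summed to 21.2 FPKM at day 6 and to at most 7.63 FPKM in the other libraries. H2-Ab1 gave 12.6 FPKM and H2-Eb1 6.28 FPKM of the day 6 value, against 0.409 and 0.873 FPKM without dox, while the class II transactivator gene Ciita stood at 0.102 FPKM. Cd74 (-1.20), H2-DMb1 (-0.54) and H2-DMa (-0.48) were lower at day 6 than without dox, none of them past the limit. In the fit of the lines 2 of 5 class II genes fell and none rose, where 9.89% of all genes fell and 11.6% rose. Of 3 tested NKG2D ligands, the stress ligands read by natural killer cells, 2 fell and none rose. Of 10 germ cell regulators, the setting in which Ifitm1 and Ifitm3 are known in the embryo, 9 fell in the XEN-type lines and 1 rose, the receptor gene Kit (4.30, adjusted p = 0.0188 by limma). Tfap2c was at 0.0971 FPKM in Sox17-XEN and 0.0191 in wild-type XEN, against 22.7 without dox and 20.4 in R1 ESC, and at day 6 it stood at 1.57 FPKM.

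Other cells in the cultures were looked for by their markers. The 20 fibroblast feeder markers summed to 2448 FPKM without dox, 1254 (7 h), 1659.9 (21 h), 2113 (35 h), 3294 (49 h) and 222 (day 6). They summed to 937 FPKM in Sox17-XEN and 59.4 FPKM in wild-type XEN, against 1235 FPKM in R1 ESC. The libraries with low Ifitm levels are also those with the 3 lowest feeder sums. In Sox17-XEN minus wild-type XEN 14 of the 20 markers were higher and none was lower, where 2.73% of all genes were higher and 1.59% lower. Over the course the Ifitm sum was 667 FPKM without dox, 582 (7 h), 609 (21 h), 793 (35 h), 722 (49 h) and 55.0 (day 6). The part of feeder RNA in the Ifitm values was not tested. The markers did not move as 1 signal: in 49 h minus no dox Acta2 (1.52) and Tagln (1.33) were up, while Lum (-0.68) and Postn (-0.62) were down. Cells other than feeders may also express these genes, which was not tested. In the fit of the lines none of the 20 markers was called by limma (5 were lower and none higher at an unadjusted p under 0.05). Among the 9 leukocyte markers found the defining gene Ptprc did not exceed 0.0596 FPKM, while 2 of the 3 tested, Laptm5 and Coro1a, fell in the XEN-type lines. The third tested, the macrophage gene Cd68, was not called (-0.59, adjusted p = 0.363 by limma). It stood at 25.5 FPKM at day 6, against 4.98 FPKM at 49 h and 6.17 FPKM without dox. Coro1a (0.520 against 4.25 FPKM) and Laptm5 (17.5 against 22.8 FPKM) were instead lower at day 6 than without dox. H2-K1, H2-D1, H2-Ab1 and H2-Eb1 were higher at day 6 than without dox, while Cd74, H2-DMa and H2-DMb1 were lower. The part of leukocytes in these values was not tested. Of the endothelial markers Cdh5 was at 85.1 FPKM and Tek at 29.7 FPKM in Sox17-XEN, which are the 2 of 4 tested that rose in the fit of the lines, while Emcn did not exceed 0.114 FPKM. In that fit 11.6% of all genes rose and 9.89% fell.

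The labels of the lines were checked with 6 ESC and 8 XEN markers. In the fit of the lines all 5 tested ESC markers fell and all 7 tested XEN markers rose. At day 6 the library held markers of both sets, with Pou5f1 at 325 FPKM and Gata4 at 303 FPKM, against 723 and 0.824 FPKM without dox. Ifitm1, at 2.26 FPKM, was much lower at day 6 relative to no dox than Pou5f1 was. Nanog stood at 1.89 FPKM, against 169 FPKM without dox, and Sox2 at 1.84 FPKM, against 131 FPKM.

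**Figure D5:**
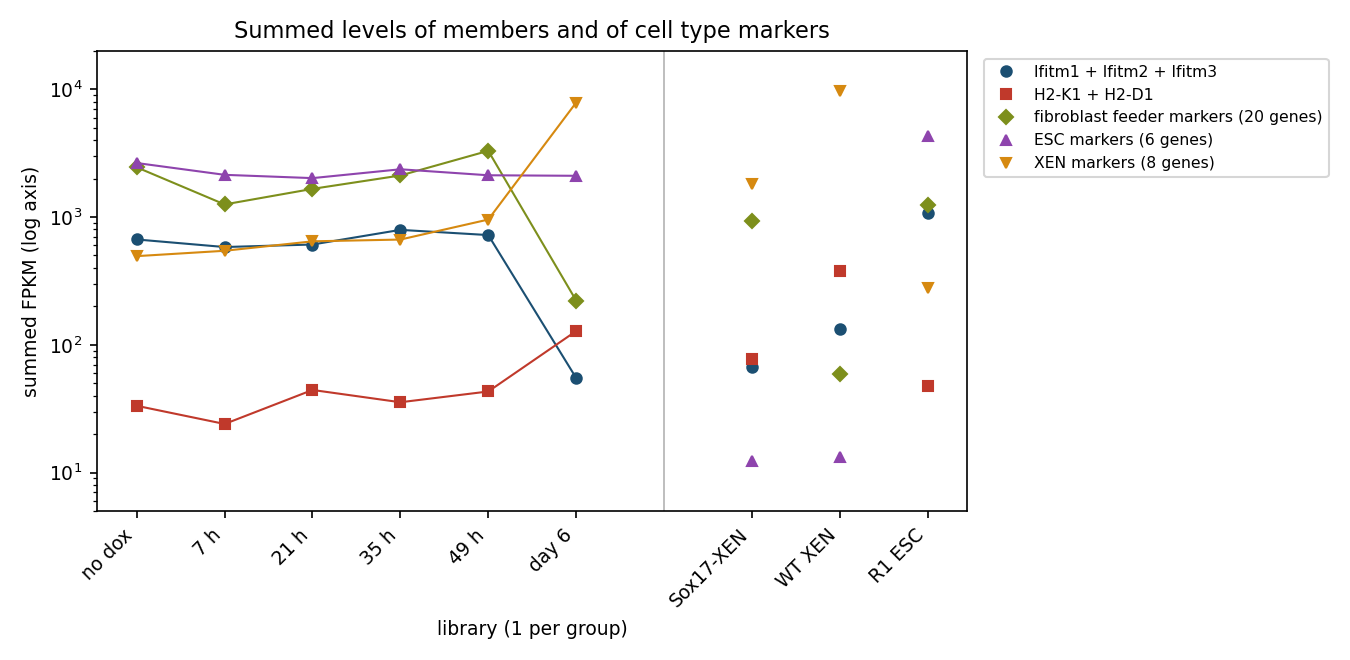
Summed FPKM (log axis) of the Ifitm genes, of H2-K1 and H2-D1, and of 3 marker lists in the 9 libraries, with lines joining the dox course. At day 6 the Ifitm sum (55.0 FPKM) and the feeder sum (222 FPKM) are both low while the ESC sum (2101 FPKM) is not. Dppa5a makes up 1733 FPKM of that ESC sum, and values without the status OK are left out of the sums (Sparc in Sox17-XEN, and Esrrb in 6 libraries).

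Across the 9 libraries the Ifitm genes varied together, with Pearson's r of log2(FPKM + 1) of 0.943 for Ifitm1 with Ifitm3, 0.937 for Ifitm1 with Ifitm2 and 0.871 for Ifitm2 with Ifitm3. H2-K1 and H2-D1 had 0.929, and B2m had 0.867 with H2-D1 and -0.898 with Ifitm1. Tap1 had 0.442 with Ifitm1 as its highest value. These are descriptions over 9 libraries that share lines, with 7 of them from 1 line, and they mainly contrast day 6 and the XEN-type lines with the rest.

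The genes most like each member were taken from 3636 genes (3637 for Tap1) with at least 5 FPKM somewhere and a range of at least 2 log2 units. Ifitm1 was most like Gjc1 (r = 0.996), Gdf3 (0.995) and Epb4.1l4a (0.994). Gdf3, a ligand of the TGF-beta family expressed in pluripotent cells, was at 0.00890 FPKM in Sox17-XEN and 0.0418 FPKM in wild-type XEN, against 28.4 FPKM in R1 ESC. Ifitm2 was most like Mid1ip1 (0.977), Prdx1 (0.972) and Bop1 (0.970), and Ifitm3 was most like Rcc2 (0.990), Tle4 (0.983) and Nphs1 (0.977). B2m was most like Fam176a (0.987), the tetraspanin gene Cd63 (0.986) and the fatty acid oxidation gene Acadvl (0.982). H2-D1 was most like Golga7 (0.989) and the stress proteins of the endoplasmic reticulum Hspa5 (0.985) and Manf (0.984). H2-K1 was most like Gabarapl1 (0.962), Tatdn3 (0.958) and Col27a1 (0.951). Tap1 was most like Eomes (0.936), Tpbg (0.933) and Aldh1l1 (0.924), all with day 6 as their highest library.

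Some of these levels may depend on how reads of genes that share sequence were divided. In GENCODE M21 transcripts, 48.5% of the 50-base windows of the longest Ifitm2 transcript also occur in other genes, 36.1% in the predicted gene Gm45717. In Ifitm3 it was 63 of 629 windows. The share was 6.36% for Ifitm1, 14.3% for H2-D1, 8.79% for H2-K1, 0.861% for Tap1 and 0% for B2m. The count takes any transcript with another symbol, so overlapping transcripts and repeats are included. The H2-D1 windows occur in 103 other genes, with at most 7.40% in any of them. Values of Ifitm2 and of the heavy chains may therefore be less certain than that of B2m in this respect, and the effect on the deposited levels was not tested. In R1 ESC the authors' upper bound was 9.87 times the level for Tap1, 8.78 times for H2-D1, 4.67 times for H2-K1 and at most 2.17 times for B2m and the Ifitm genes. The mouse strain behind each line was not used here, and H2 alleles differ between strains.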

How the data were processed

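Trizol RNA went into TruSeq RNA libraries, per the labels' protocols. TopHat2 2.0.11, Cufflinks 2.1.2, Cuffdiff and the mouse build mm9 are named, per the submitters' processing notes. The authors deposited 1 table of FPKM per gene with confidence bounds and a status, and values whose status was not OK were taken as missing. FPKM is relative to each library's own total, so a few abundant genes shift the rest. Of the rows, 38.9% share their locus with another row, and the use of strand is not given in the sources used here. The deposited table gives no counts, so no counting interval is given.

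Differences and fits used log2(FPKM + 1) over the 15082 rows that reached 1 FPKM in some library. The fits used limma 3.58.1 in R 4.3.3, with empirical Bayes moderation, a mean trend, two-sided tests and a Benjamini-Hochberg adjusted p under 0.05. They were run on simulated data with the same noise level for all genes. That check does not cover the spread between lines. Other values came from Python 3.11.15, numpy 2.4.6 and pandas 2.3.3, and figures from matplotlib 3.10.9. Named genes are the 7 members, up to 4 genes per list with the largest differences past 2 log2 units, 12 fixed pathway genes (1 of them is not reported here), markers, and the 3 most alike genes per member. Others were named after their values were seen. The members and the 19 pathway and marker lists were chosen with earlier results of these data known. Table coordinates are 1-based in mm9, and promoter sequences are RefSeq's in GRCm38.p6.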

Additional observations from a re-analysis of the deposited data

How the results depend on the processing

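No value has a replicate, and no paired analysis was possible because each group has 1 library. Asking that the authors' confidence intervals do not overlap left 0 members called in every comparison between single libraries, higher or lower, including those of wild-type XEN, day 6 and Sox17-XEN, by construction of these wide intervals. Rescaling to a common median left 1 member higher in wild-type XEN than in R1 ESC and 0 higher at day 6 than without dox, and kept every other count within 1.5 times of its value. With a difference of at least 1 as the limit, 3 members were higher and the same number lower at day 6 against no dox and against 49 h, 2 were higher in Sox17-XEN than without dox, 1 was higher and 3 lower in Sox17-XEN than at day 6, 1 was higher in Sox17-XEN than in wild-type XEN, and 1 was lower without dox than in R1 ESC. The share of all genes past a difference of 1 was not counted, so these counts have no background beside them. A pseudocount of 0.1 put 1 member, Tap1, lower in Sox17-XEN than at day 6. A pseudocount of 5 or the use of values without the status OK moved no count beyond 1.5 times.

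In the slope over the course, time in hours in place of ranks called 3 members higher and 3 lower by limma. In that fit day 6 lies far from the other times, and 4307 of 14933 genes were higher and 2033 lower. Adding Sox17-XEN as a further step called 1 member higher, H2-D1, where 1282 of 14907 genes were higher and 727 lower. With that step the slope of Tap1 was -0.04, and leaving out each library in turn gave slopes of -1.10 to 0.18 for Ifitm1 and -0.52 to 0.04 for Ifitm2, the highest of each without day 6 and the lowest without the library without dox. No slope was called in these fits (0). For the lines it gave 0 to 2 members higher and 0 to 3 lower, with 0 in both directions without R1 ESC or without the Sox17 line without dox, and 2 higher without Sox17-XEN. There the type that lost a library is assumed to vary like the other. The cause of these changes was not tested.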
